A study of Cannabis sativa with 10 samples.

Results

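Male shoot apices of Cannabis sativa at week 3 of flowering were set against male apices at week 1, using 4 of the 10 messenger RNA libraries of a study of unisexual flower development. The 4 libraries were taken by their labels and comprise 2 male week 3 and 2 male week 1 libraries. All 10 libraries came from shoot apex tissue of a single genotype named A3, and the others were 2 female week 3, 2 female week 1 and 2 vegetative libraries. Male flowers were induced with an agent labelled STS, read here as silver thiosulfate, a blocker of ethylene perception that leads female plants to bear male flowers. Both male weeks carried this treatment, and the female and vegetative libraries did not. A difference from female apices therefore carries the difference in treatment with it. The labels do not say whether replicate libraries came from separate plants or how many apices were pooled, and the p-values therefore measure only the spread between these libraries, which may be technical.

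The male cannabis flower holds stamens inside a ring of tepals. In flowering plants the identity of a stamen is set by MADS-box transcription factors of class B (the APETALA3 and PISTILLATA types) acting with AGAMOUS-type and SEPALLATA-type partners. Inside each anther, meiocytes pass through meiosis to give haploid microspores. They are surrounded by the tapetum, a nurse layer that feeds them and makes the precursors of sporopollenin, the polymer of the outer pollen wall. A callose wall encloses the meiocytes and tetrads until glucanases dissolve it. Most gene functions given below were worked out in Arabidopsis, and genes are named by the deposited product descriptions.

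Levels are FPKM, fragments scaled for transcript length and by a factor for each library, so they can be compared between genes. The FPKM totals were 736053 and 764672 in male week 3 libraries and 736178 and 731665 in male week 1 libraries. The depth in reads is not given. The size of a single read in low values put the scaling factor at 0.927 and 0.922 in male week 3 libraries, relative to male week 1 replicate 1. It was 0.881 in male week 1 replicate 2. This factor equals relative depth only if the values were scaled by read totals. Median-of-ratios factors of the deposited values lay between 0.975 and 0.997 in the 10 libraries. Of 35192 genes, the 17844 that averaged 1 FPKM or more in either male week were tested with limma on log2(FPKM + 1), and a gene was called where the p-value adjusted by Benjamini-Hochberg over these genes was under 0.05. Replicates correlated across tested genes at r = 0.979 in each week, and libraries of different weeks at 0.707 to 0.724. Differences are male week 3 minus male week 1 on this scale, which understates the change of genes at low FPKM, and adjusted p-values are limma's. Where both week 1 libraries listed a gene at 0, no difference is given, and list medians hold such genes at their fitted value, which is no bound.

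The labelled tissue was checked against marker genes. Shoot meristem genes were present in both weeks, among them the SHOOT MERISTEMLESS-type gene SBH1 (LOC115707692) at 7.26 and 8.14 FPKM in male week 3, against 14.9 and 10.6 FPKM in male week 1 (log2 difference -0.64, SE 0.21, adjusted p = 0.0225). The call of SBH1 was lost without male week 3 replicate 1 (adjusted p = 0.117), without male week 3 replicate 2 (adjusted p = 0.0592) and without male week 1 replicate 1 (adjusted p = 0.140). The summed level of the 6 meristem marker genes was 21.7 and 25.3 FPKM in male week 3 libraries, against 39.8 and 35.5 FPKM in male week 1 libraries, and 4 of the 5 tested fell. Markers of leaf mesophyll summed to 5006 and 5934 FPKM in male week 3 libraries, against 12854.5 and 22911 FPKM in male week 1 libraries, and 17 of 18 tested fell. All 15 tapetum marker genes and all 8 meiocyte marker genes rose, and both stamen identity genes rose. Of 6 markers of mature pollen, 4 had a match, and of the 4 genes tested 3 rose and none fell. These 3 averaged under 1 FPKM in male week 1, as did most of the tapetum markers. Such genes were tested only through their level in male week 3, so for them no fall was possible. The 8 matched genes of the mature pollen markers summed to 22.5 and 25.4 FPKM in male week 3 libraries and 3.40 and 2.69 FPKM in male week 1 libraries. The level was thus low in both weeks, and most of it in male week 3 came from HAPLESS 2. Of all genes tested, 34.6% rose and 28.7% fell. In bulk tissue, more or fewer cells of a type and more or less RNA per cell cannot be told apart, and the part that a changed cell makeup has in the results below was not tested.

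Most genes tested differed between the weeks. Of the 17844 genes tested, 11290 were called (63.3%), with 6177 higher (34.6%) and 5113 lower (28.7%) in male week 3. The median difference over all genes tested was 0.03. Both week 3 libraries lay above both week 1 libraries for 41.3% of all genes tested, and below both for 37%. Of the 6177 genes called higher, 6173 did not overlap between the weeks. Rises were larger than falls, with a median of 1.23 among genes called higher and -0.86 among genes called lower. At an absolute difference of 2 or more, 1736 genes were higher and 286 lower, and at 4 or more, 461 were higher and 23 lower. The split depends on scaling. After quantile normalization, which forces the same distribution on every library and moved the median of all genes to -0.24, 4657 genes were called higher and 7639 lower.

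**Figure D1:**
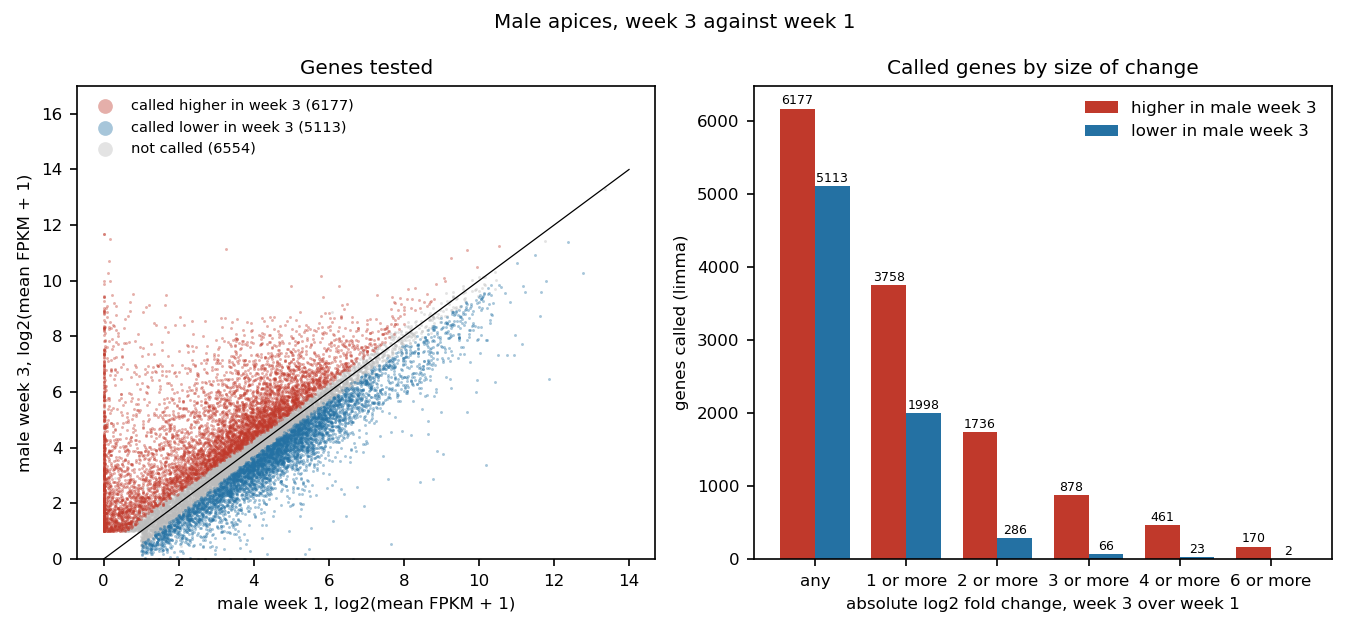
Left, each tested gene by its mean level in male week 1 (x axis) and male week 3 (y axis), both as log2(mean FPKM + 1), coloured by its call. Right, the number of called genes at rising thresholds of the absolute log2 difference; 1736 genes were higher and 286 lower at 2 or more.

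The genes called higher held 46.3% and 48.0% of all FPKM in male week 3 libraries, against 14.5% and 13.9% in male week 1 libraries. The genes called lower held 24.6% and 24.7% in male week 3 libraries, against 54.3% and 57.5% in male week 1 libraries. In the female week 3 libraries the genes higher in male week 3 held 19.4% and 19.3% of the total. More genes were detectable at 1 FPKM or above in male week 3, with 17306 and 17294 genes, than in male week 1, with 16087 and 16038 genes.

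A set of 417 genes was listed at 0 in both male week 1 libraries and at 1 FPKM or more in both male week 3 libraries, and 6 genes showed the reverse. Of the 417, 414 were called higher, which their selection on these same libraries nearly fixes. Of the 417, 144 reached at least 10 FPKM and 49 at least 100 FPKM in both male week 3 libraries. The whole set made up 3.36% and 3.74% of the FPKM total there. In the other 8 libraries of the study 316 of them never exceeded 0.1 FPKM, and 214 were listed at 0 in every one of the 6 female and vegetative libraries as well. Of the genes tested, 8 of 59 of sugar transport and sucrose cleavage and 7 of 63 GDSL esterases/lipases belonged to this set. So did 5 of 10 genes of the tapetum regulator list and 4 of 16 sporopollenin genes, against 417 of all 17844 genes tested. The other gene lists held fewer, and many held none.

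The highest transcript of this set encoded a RING-type ubiquitin ligase annotated ATL6-like (LOC115718105; chromosome 5, 74254344 to 74255063, build ASM2916894v1), at 3266 and 3317 FPKM in male week 3, against 0 and 0 FPKM in male week 1 (adjusted p = 1.85e-10). Some female libraries gave this gene values above 0 but under 0.001 FPKM, so its share of reads against related genes is uncertain. Protein MEN-8 (LOC115715872; chromosome 5, 13599488 to 13600265), a small lipid-transfer-type protein named after a male flower transcript of white campion, was at 2205 and 4329 FPKM in male week 3, against 0 and 0 FPKM in male week 1 (adjusted p = 1.17e-09). Protein M7 (LOC115718067), a related small protein named after a lily anther transcript, was at 2275 and 3529 FPKM in male week 3, against 0.249 and 0 FPKM in male week 1 (log2 difference 11.31, SE 0.31, adjusted p = 1.31e-09). A lipid-transfer protein annotated A-like (LOC115707560) was at 1223 and 2087 FPKM in male week 3, against 0.194 and 0 FPKM in male week 1 (log2 difference 10.52, SE 0.23, adjusted p = 3.51e-10). All of these stood among the most abundant transcripts of week 3 apices and at or next to 0 at week 1. MEN-8, M7 and the lipid-transfer protein were each higher in male week 3 replicate 2 than in replicate 1, while the ATL6-like gene was nearly equal in both.

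Other abundant transcripts of week 3 were likewise at or near 0 at week 1. The polyadenylate-binding protein 7 gene (LOC115711430), of a family that binds the tails of messenger RNAs, was at 513 and 869 FPKM in male week 3, against 0 and 0 FPKM in male week 1 (adjusted p = 5.78e-10). An AT-hook nuclear-localized protein gene (LOC115713901) was at 633 and 602 FPKM in male week 3, against 0 and 0 FPKM in male week 1 (adjusted p = 2.12e-10). A transmembrane 9 superfamily gene (LOC115710997) was at 595 and 765 FPKM in male week 3, against 0 and 0 FPKM in male week 1 (adjusted p = 2.12e-10). A glycosyltransferase annotated At5g11130 (LOC115707935), of a family that builds cell wall polysaccharides, was at 526 and 516 FPKM in male week 3, against 0 and 0.082 FPKM in male week 1 (log2 difference 8.97, SE 0.16, adjusted p = 2.12e-10). None of these genes exceeded 0.288 FPKM in any female or vegetative library.

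Floral MADS-box genes moved in both directions. Of 32 in the table, 24 were tested, and 4 of these were not called. Rises numbered 13 (54.2%, against 34.6% of all genes tested) and falls 7 (29.2%, against 28.7%). The falls thus lay near the share of all genes. The median difference was 0.67 in male and 0.44 in female apices. The class B genes and a gene annotated AGAMOUS had the largest rises. TM6 (LOC115714657; chromosome 4, 78054032 to 78057013), of the APETALA3 type, was at 169.7 and 156 FPKM in male week 3, against 2.22 and 0.894 FPKM in male week 1 (log2 difference 6.05, SE 0.26, adjusted p = 3.03e-08). PMADS 2 (LOC115699531; chromosome 8, 48462703 to 48465748), of the PISTILLATA type, was at 126 and 112 FPKM in male week 3, against 1.6 and 1.4 FPKM in male week 1 (log2 difference 5.58, SE 0.17, adjusted p = 2.97e-09). Both were low but detected at week 1, and the weeks did not overlap, as for nearly all genes called higher. Genes with AGAMOUS-type annotations split. The AGAMOUS-annotated gene with the large rise (LOC115700192; chromosome X, 81938054 to 81940559) was at 286 and 254 FPKM in male week 3, against 5.31 and 3.11 FPKM in male week 1 (log2 difference 5.73, SE 0.22, adjusted p = 1.30e-08), although its closest Arabidopsis protein was SEEDSTICK at only 32% identity. Its deposited family label is M-type MADS, unlike the MIKC MADS label of LOC115697576, and its place in the AGAMOUS clade was not tested. The gene with the closest match to AGAMOUS itself, which specifies stamens and carpels (LOC115697576; chromosome 7, 61415108 to 61423167; 63.6% identity), was at 34.9 and 40.5 FPKM in male week 3, against 5.41 and 3.66 FPKM in male week 1 (log2 difference 2.82, SE 0.26, adjusted p = 7.98e-06). AGL11 (LOC133031811), closest to the ovule gene SEEDSTICK, moved the other way, at 1.17 and 0.846 FPKM in male week 3, against 9.61 and 6.83 FPKM in male week 1 (log2 difference -2.19, SE 0.22, adjusted p = 1.34e-05).

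The 3 MADS2 genes and MADS4, of the SEPALLATA type and partners of the other floral MADS proteins, rose. MADS2 (LOC115700828) was at 48.5 and 44.2 FPKM in male week 3, against 11.3 and 5.3 FPKM in male week 1 (log2 difference 2.42, SE 0.26, adjusted p = 2.62e-05). A further MADS2 gene (LOC115709018) was at 16.2 and 13.5 FPKM in male week 3, against 1.37 and 0.372 FPKM in male week 1 (log2 difference 3.13, SE 0.25, adjusted p = 2.45e-06). Another MADS2 gene (LOC115700827) differed by 2.53. MADS4 (LOC115712087) was at 37.6 and 33.4 FPKM in male week 3, against 7.85 and 5.84 FPKM in male week 1 (log2 difference 2.23, SE 0.23, adjusted p = 1.62e-05). A pair of genes of the SVP type, which in Arabidopsis repress flowering and act in early floral meristems, also rose, while a further gene of that type fell (LOC115720605, -1.04). JOINTLESS (LOC115714329) was at 69.1 and 56.9 FPKM in male week 3, against 7.76 and 6.33 FPKM in male week 1 (log2 difference 2.99, SE 0.16, adjusted p = 1.36e-07). SVP (LOC115721274) was at 32.4 and 24.2 FPKM in male week 3, against 13.1 and 11.6 FPKM in male week 1 (log2 difference 1.12, SE 0.18, adjusted p = 0.000421). AGL15 (LOC115710309), a MADS-box gene of embryos and young flowers that is not counted in this list, was at 15.1 and 12.8 FPKM in male week 3, against 0.221 and 0.753 FPKM in male week 1 (log2 difference 3.35, SE 0.19, adjusted p = 2.07e-07). In each of these genes that rose, both week 3 libraries lay above both week 1 libraries, as in nearly all genes called higher.

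SOC1 and AGL42 fell, whereas AGL19, of the same clade, was not called. SOC1 (LOC115706939), which integrates flowering signals, was at 9.72 and 6.62 FPKM in male week 3, against 60.9 and 40.1 FPKM in male week 1 (log2 difference -2.48, SE 0.21, adjusted p = 4.93e-06). AGL42 (LOC115717309), a relative of SOC1, was at 3.33 and 5.23 FPKM in male week 3, against 34.5 and 29.3 FPKM in male week 1 (log2 difference -2.66, SE 0.17, adjusted p = 5.22e-07). A CAULIFLOWER A gene closest to a FLOWERING LOCUS C relative (LOC115725163) was at 0.523 and 0.978 FPKM in male week 3, against 12.1 and 10.4 FPKM in male week 1 (log2 difference -2.81, SE 0.17, adjusted p = 3.96e-07). The second JOINTLESS gene (LOC115720605) fell as given above, and 2 further CAULIFLOWER A genes, LOC115698549 and LOC115702300, differed by -1.16 and -0.94. The call of LOC115702300 was lost with a pseudocount of 0.1 (adjusted p = 0.168). Smaller rises were called for MADS1 (LOC115698701, 0.65), for MADS3 (LOC115704294, 1.03) and the CAULIFLOWER A gene closest to SEPALLATA1 (LOC115701144, 0.69). The genes not called were CAULIFLOWER (LOC115704295, -0.72), CAULIFLOWER A (LOC115701438, -0.07), MADS3 (LOC115716337, 0.18) and AGL19 (LOC115716986, 0.51). Leaving out a library moved several of these: without male week 1 replicate 1, AGL19 (0.89) and the MADS3 gene LOC115716337 (0.55) were called higher, and without male week 1 replicate 2, CAULIFLOWER was called lower (-1.12). The call of MADS1 was lost with a pseudocount of 0.1 (adjusted p = 0.0856), after quantile normalization (adjusted p = 0.168) and without male week 1 replicate 2 (difference 0.55). That of LOC115701144 was lost with a pseudocount of 5 (adjusted p = 0.0529) and after quantile normalization (difference 0.05, adjusted p = 0.865). It was also lost without male week 3 replicate 1 (0.61), without male week 3 replicate 2 (0.77) and without male week 1 replicate 2 (0.47).

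**Figure D2:**
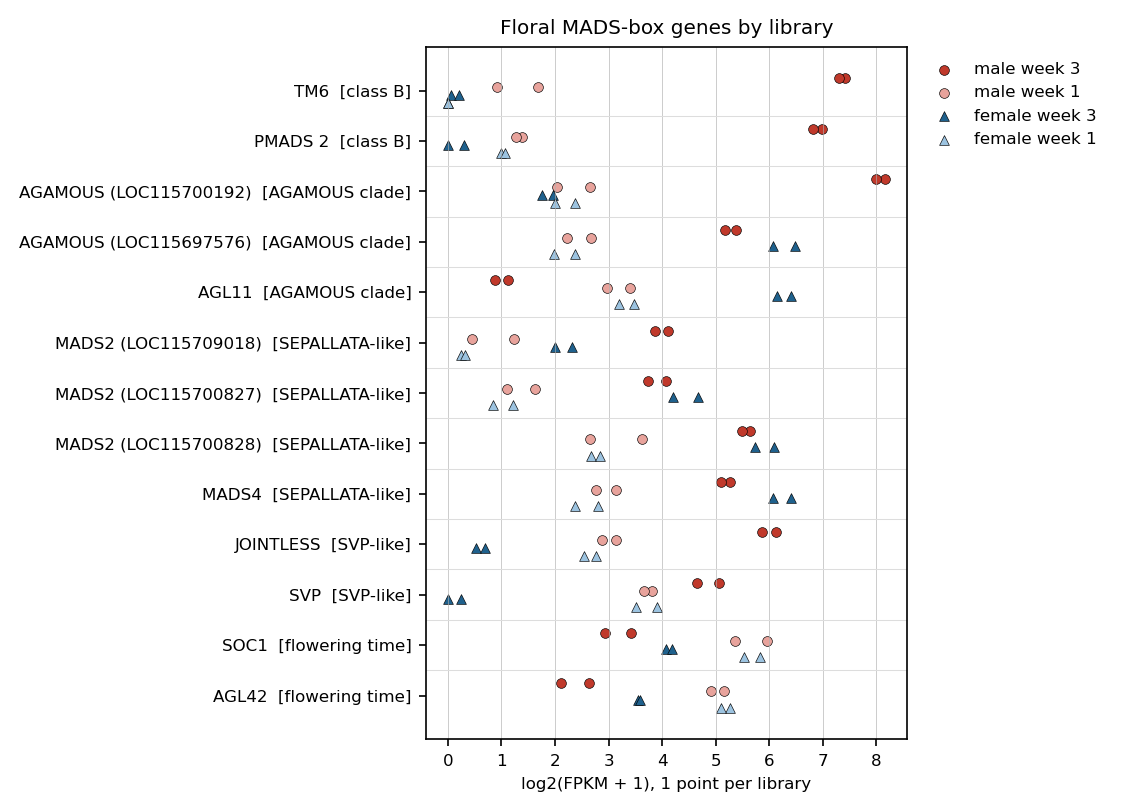
Floral MADS-box genes (rows, with their class in brackets) by level, log2(FPKM + 1), with 1 point per library of the male weeks (circles) and female weeks (triangles). TM6, PMADS 2 and the AGAMOUS-annotated gene LOC115700192 lie far to the right in male week 3 only, whereas AGL11 lies left in male week 3 and right in female week 3.

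Type I MADS-box genes and those of the pollen type, many of them known from gametophytes and seeds, were mostly too low to test. Of 29 in the table, 7 were tested and 6 rose (85.7%, against 34.6% of all genes tested). AGL30 (LOC115701208), which acts in Arabidopsis pollen, was at 93.7 and 93.3 FPKM in male week 3, against 2.13 and 2.2 FPKM in male week 1 (log2 difference 4.90, SE 0.14, adjusted p = 1.78e-09). AGL104 (LOC115713471), a pollen partner of AGL30, was at 12 and 12.3 FPKM in male week 3, against 0 and 0 FPKM in male week 1 (adjusted p = 8.82e-09). Since such genes passed the filter mainly through their level in male week 3, the count says little about the 22 left out, which stayed below a mean of 1 FPKM in both weeks.

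All 10 genes of the tapetum regulator list were tested and all 10 rose, against 34.6% of all genes tested, with a median difference of 4.14 in male and 0.03 in female apices. Members at or near 0 in male week 1 passed the filter only through male week 3. For them a fall was not possible, so the count says little beyond their presence in male week 3. DYT1 (LOC115704570), the bHLH factor at the top of the Arabidopsis tapetum cascade, was at 22.8 and 12.6 FPKM in male week 3, against 0 and 0 FPKM in male week 1 (adjusted p = 2.36e-07). MYB35 (LOC115711316), the counterpart of TDF1, which acts below DYT1, was at 68.3 and 60.9 FPKM in male week 3, against 0 and 0.0572 FPKM in male week 1 (log2 difference 5.99, SE 0.15, adjusted p = 8.14e-10). A second MYB35 gene (LOC115700367) was at 12.4 and 8.95 FPKM in male week 3, against 0 and 0 FPKM in male week 1. ABORTED MICROSPORES, the next factor of the cascade, has 2 genes of that annotation here, between which the counting could not be checked. The gene LOC133032628 was at 20.1 and 30.8 FPKM in male week 3, against 0 and 0.0363 FPKM in male week 1 (log2 difference 4.67, SE 0.19, adjusted p = 2.24e-08). The gene LOC115706375 was at 10.8 and 14.3 FPKM in male week 3, against 0 and 0.0365 FPKM in male week 1. MYB80 (LOC115725196), which controls late tapetal development, was at 14.8 and 18 FPKM in male week 3, against 0 and 0 FPKM in male week 1 (adjusted p = 8.38e-09). MALE STERILITY 1 (LOC115723942), a PHD-finger protein of the end of the cascade, was lowest, at 4.05 and 1.74 FPKM in male week 3, against 0 and 0 FPKM in male week 1 (adjusted p = 7.88e-05). So every step of the cascade was detected in both week 3 libraries, and 5 of the 10 genes were listed at 0 in both week 1 libraries.

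The highest genes of the list were others. MALE MEIOCYTE DEATH 1 (LOC115721367), a PHD-finger gene needed in Arabidopsis male meiocytes, was at 294 and 366 FPKM in male week 3, against 0 and 0 FPKM in male week 1 (adjusted p = 2.23e-10). It is counted in the tapetum regulator list although its role given here is in meiocytes. The bHLH91 gene (LOC115713370), of the bHLH group that partners DYT1, was at 195 and 269 FPKM in male week 3, against 0 and 0.0401 FPKM in male week 1 (log2 difference 7.82, SE 0.19, adjusted p = 5.71e-10). A GAMYB-like gene (LOC133033478), of the gibberellin-responsive MYB class that acts in anthers, was detected in both weeks, at 95.5 and 111 FPKM in male week 3, against 6.38 and 5.06 FPKM in male week 1 (log2 difference 3.96, SE 0.15, adjusted p = 1.37e-08). Early anther patterning genes showed no common direction: of 9 tested, 3 rose (33.3%, against 34.6% of all genes tested) and 5 fell (55.6%, against 28.7%). TAPETUM DETERMINANT 1 (LOC115709731), the peptide signal that specifies the tapetum, was at 14.4 and 10.6 FPKM in male week 3, against 0.127 and 0.185 FPKM in male week 1 (log2 difference 3.53, SE 0.26, adjusted p = 1.45e-06). A glutaredoxin-C7 (LOC115714750), of the ROXY type needed in Arabidopsis for petals and anthers to form, was at 0.479 and 0.275 FPKM in male week 3, against 8.65 and 4.11 FPKM in male week 1 (log2 difference -2.35, SE 0.29, adjusted p = 7.00e-05). The count of falls in this list was 3 without male week 3 replicate 1 and also 3 without male week 1 replicate 2.

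Of the 16 genes of sporopollenin and pollen wall formation, 14 rose (87.5%, against 34.6% of all genes tested) and none fell. Members under 1 FPKM in male week 1 passed the filter only through male week 3, so for them no fall was possible. The median difference was 6.35 in male and 0.01 in female apices. The enzymes of the sporopollenin pathway were among those that rose. The acyl-CoA synthetase 4-coumarate--CoA ligase-like 1 (LOC115712547; chromosome 4, 10084517 to 10118028), counterpart of ACOS5, which activates the fatty acids, was at 373 and 806 FPKM in male week 3, against 0.292 and 0.124 FPKM in male week 1 (log2 difference 8.83, SE 0.30, adjusted p = 5.85e-09). The hydroxylase CYP703A2 (LOC115707784) was at 209.6 and 387 FPKM in male week 3, against 0.279 and 0.238 FPKM in male week 1 (log2 difference 7.83, SE 0.24, adjusted p = 3.07e-09). CYP704B1 (LOC115700892), which acts on longer fatty acids, was at 205 and 332 FPKM in male week 3, against 12.6 and 8.43 FPKM in male week 1 (log2 difference 4.53, SE 0.24, adjusted p = 1.25e-07). Type III polyketide synthase A (LOC115715682; chromosome 5, 27875864 to 27877387), counterpart of LAP6, was at 544 and 543 FPKM in male week 3, against 0.0534 and 0.0606 FPKM in male week 1 (log2 difference 9.01, SE 0.15, adjusted p = 2.12e-10). Of these enzymes only CYP704B1 was above 1 FPKM in the week 1 libraries.

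Later steps followed the same pattern. Type III polyketide synthase B, counterpart of LAP5, has 2 genes of that annotation here. The gene LOC115704317 was at 116 and 84.8 FPKM in male week 3, against 0.755 and 0.858 FPKM in male week 1. The gene LOC133033194 was at 35.1 and 22.2 FPKM in male week 3, against 0.198 and 0.36 FPKM in male week 1. Tetraketide alpha-pyrone reductase 1 (LOC115702568), which reduces the polyketides, was at 118 and 134 FPKM in male week 3, against 0 and 0 FPKM in male week 1 (adjusted p = 2.76e-10). Reductase 2 (LOC115712400) was at 70.3 and 78.8 FPKM in male week 3, against 4.05 and 4.66 FPKM in male week 1 (log2 difference 3.82, SE 0.14, adjusted p = 1.25e-08). Fatty acyl-CoA reductase 2 (LOC115699209), counterpart of MALE STERILITY 2, which makes fatty alcohols for the wall, was at 216 and 424 FPKM in male week 3, against 0.071 and 0.135 FPKM in male week 1 (log2 difference 8.11, SE 0.26, adjusted p = 4.29e-09). The transporter ABCG26 (LOC115724967), which exports sporopollenin precursors from the tapetum, was at 92.1 and 111 FPKM in male week 3, against 0 and 0 FPKM in male week 1 (adjusted p = 4.01e-10). In the female and vegetative libraries ACOS5-like, LAP6-like, CYP703A2 and MALE STERILITY 2-like transcripts did not exceed 0.466, 0.155, 0.414 and 0.206 FPKM. The 2 genes of the list that were not called were anther-specific proline-rich APG genes, LOC133031742 (-0.26) and LOC115704456 (-0.13).

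Of 32 meiosis genes, 30 were tested, 26 rose (86.7%, against 34.6% of all genes tested) and 1 fell (3.33%, against 28.7%). Members under 1 FPKM in male week 1 were tested only through male week 3, so for them no fall was possible. The median difference was 1.86 in male and -0.04 in female apices. DMC1 (LOC115722511; chromosome 9, 11514793 to 11518300), the meiosis-specific recombinase, was at 159 and 85 FPKM in male week 3, against 2.05 and 1.8 FPKM in male week 1 (log2 difference 5.33, SE 0.26, adjusted p = 7.39e-08). ASY1 (LOC115712153), a protein of the meiotic chromosome axis, was at 167 and 98.9 FPKM in male week 3, against 7.72 and 6.88 FPKM in male week 1 (log2 difference 3.96, SE 0.21, adjusted p = 1.24e-07). The cohesin gene sister chromatid cohesion 1 protein 1 (LOC115706800), counterpart of REC8, was at 39.2 and 22.6 FPKM in male week 3, against 0.0777 and 0.0883 FPKM in male week 1 (log2 difference 4.83, SE 0.22, adjusted p = 5.11e-08). DYAD (LOC133030175), which switches cells into meiosis, was at 26.8 and 14.5 FPKM in male week 3, against 0.0282 and 0 FPKM in male week 1 (log2 difference 4.35, SE 0.24, adjusted p = 1.58e-07). The meiotic cyclin SDS (LOC115721811) was at 19.3 and 12.5 FPKM in male week 3, against 0.648 and 0.354 FPKM in male week 1 (log2 difference 3.47, SE 0.21, adjusted p = 4.16e-07). For each of these, both week 3 libraries were above both week 1 libraries, as in nearly all genes called higher. Replicate 1 of week 3 was above replicate 2 in each.

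Other genes of the meiosis list act in crossover formation and synapsis. SPO11-1 (LOC115724758), which cuts DNA to start recombination, was at 5.28 and 4.19 FPKM in male week 3, against 3.46 and 1.27 FPKM in male week 1 (log2 difference 0.84, SE 0.28, adjusted p = 0.0243). Its call was lost after quantile normalization (adjusted p = 0.148) and with the male libraries fitted alone (adjusted p = 0.0608). The same held without male week 3 replicate 1 (difference 0.70), without male week 3 replicate 2 (0.98) and without male week 1 replicate 2 (0.36). MSH4 (LOC115716070) and MSH5 (LOC115695791), which stabilise crossovers, differed by 1.78 and 1.90. The 2 genes of the synaptonemal complex protein ZYP1, LOC115699198 and LOC115699159, differed by 1.87 and 2.93. Among those not called were the repair gene MLH3 (LOC115702602, 0.02) and another synaptonemal complex gene (LOC115710142, 0.24). Without male week 1 replicate 1 the synaptonemal complex gene was called higher (0.51). The gene that fell was POLLENLESS 3-LIKE 2 (LOC115702666), at 7.65 and 9.15 FPKM in male week 3, against 31.4 and 31.5 FPKM in male week 1 (log2 difference -1.79, SE 0.16, adjusted p = 7.39e-06).

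**Figure D3:**
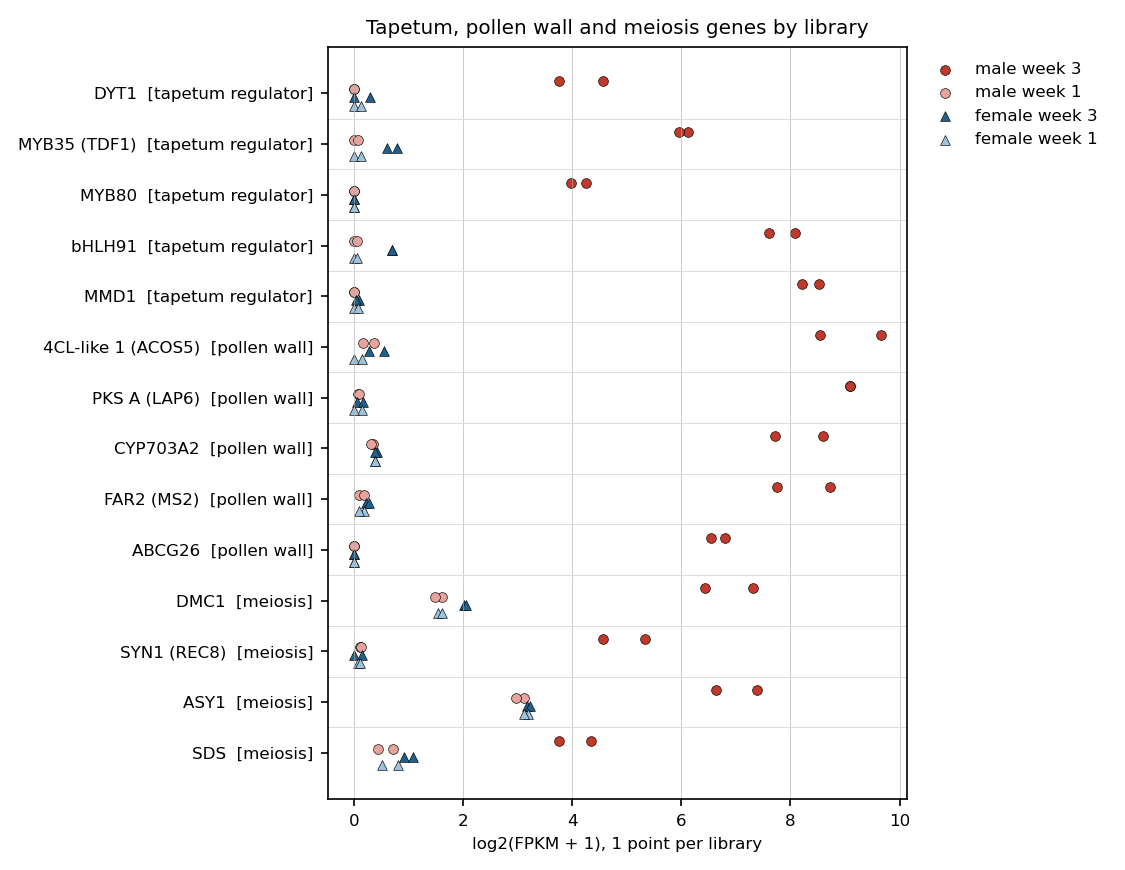
Tapetum regulators, pollen wall genes and meiosis genes (rows) by level, log2(FPKM + 1), with 1 point per library. Male week 3 libraries (dark circles) lie to the right of male week 1 and of all female libraries in every row, and the meiosis genes DMC1 and ASY1 were already above 0 in the other groups.

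Within male week 3, the replicates leaned towards different anther genes. Of the 26 meiosis genes that rose, 21 were higher in replicate 1, with a median ratio of replicate 2 to replicate 1 of 0.775, taken on FPKM + 1. Of the 14 pollen wall genes that rose, 11 were higher in replicate 2, with a median ratio of 1.35. Over all 6177 genes that rose, 3570 were higher in replicate 2 and the median ratio was 1.04. The summed level of the 15 tapetum markers was 1970 FPKM in replicate 1 and 2880 FPKM in replicate 2, and that of the 8 meiocyte markers was 428 FPKM in replicate 1 and 255 FPKM in replicate 2.

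Callose genes included large rises within a list in which falls outnumbered rises, with a median of -0.32. Of 43 tested, 11 rose (25.6%, against 34.6% of all genes tested) and 20 fell (46.5%, against 28.7%). Callose synthase 5 (LOC115714911), which builds the callose wall of meiocytes and tetrads, was at 43 and 49.2 FPKM in male week 3, against 1.73 and 1.86 FPKM in male week 1 (log2 difference 4.07, SE 0.18, adjusted p = 3.46e-08). The glucanase A6 gene (LOC115722595), of the type expressed in the tapetum to dissolve callose, was at 45.6 and 18.7 FPKM in male week 3, against 2.97 and 2.25 FPKM in male week 1 (log2 difference 3.08, SE 0.32, adjusted p = 1.80e-05), and its libraries differed by more than 2-fold within week 3. A further glucan endo-1,3-beta-glucosidase (LOC115707445) was at 94 and 124 FPKM in male week 3, against 0.27 and 0.219 FPKM in male week 1 (log2 difference 6.45, SE 0.17, adjusted p = 1.31e-09). The pectin list was similarly mixed, with 23 rises and 28 falls among 84 tested (27.4% and 33.3%, against 34.6% and 28.7% of all genes tested). QRT3 (LOC115697935), the polygalacturonase that separates the microspores of a tetrad, was at 125 and 188 FPKM in male week 3, against 11 and 9.03 FPKM in male week 1 (log2 difference 3.81, SE 0.19, adjusted p = 7.93e-08). Pectinesterase 31 (LOC115701150) was at 253 and 267 FPKM in male week 3, against 4.62 and 6.02 FPKM in male week 1 (log2 difference 5.38, SE 0.15, adjusted p = 1.90e-09). Probable pectinesterase 68 (LOC115716251) was the largest fall of the list, at 5.75 and 4.3 FPKM in male week 3, against 120.5 and 94 FPKM in male week 1 (log2 difference -4.17, SE 0.17, adjusted p = 1.94e-08).

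Arabinogalactan proteins, lipid transfer proteins and GDSL esterases/lipases, large families of the cell surface, each had more falls than rises. In that order, 10 rose and 14 fell of 33 tested, 9 and 13 of 31, and 16 and 28 of 63. Rises made up 30.3%, 29.0% and 25.4%, against 34.6% of all genes tested. Falls made up 42.4%, 41.9% and 44.4%, against 28.7%. These families still held a few of the largest rises. Fasciclin-like arabinogalactan protein 21 (LOC115714678) was at 951 and 1526 FPKM in male week 3, against 0.169 and 0 FPKM in male week 1 (log2 difference 10.12, SE 0.34, adjusted p = 5.54e-09), and its relative LOC115701516 at 129.9 and 185 FPKM in male week 3, against 2.79 and 1.74 FPKM in male week 1 (log2 difference 5.60, SE 0.23, adjusted p = 2.68e-08). The lipid transfer protein GPI-anchored 25 (LOC115722996) was at 347 and 515 FPKM in male week 3, against 0.3 and 0.204 FPKM in male week 1. The protein GPI-anchored 10 (LOC115710368) was at 207 and 251 FPKM in male week 3, against 0 and 0 FPKM in male week 1. A GDSL gene annotated At5g03820-like (LOC115696433) was at 73.7 and 30.0 FPKM in male week 3, against 0 and 0 FPKM in male week 1 (adjusted p = 2.28e-07). Both week 3 libraries lay above both week 1 libraries in each of these genes, which was a condition for naming them.

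Sugar transport and sucrose cleavage genes rose more often than they fell, with a median of 1.00. Among 59 tested there were 33 rises (55.9%, against 34.6% of all genes tested) and 11 falls (18.6%, against 28.7%). The sugar exporter SWEET6b (LOC115698891) was at 196 and 184 FPKM in male week 3, against 1.18 and 0.923 FPKM in male week 1 (log2 difference 6.54, SE 0.17, adjusted p = 1.16e-09). SWEET6b-like (LOC133030012) was at 58.9 and 68.7 FPKM in male week 3, against 0 and 0 FPKM in male week 1 (adjusted p = 6.42e-10). An insoluble beta-fructofuranosidase (LOC115699486), the cell wall invertase that splits sucrose, was at 123 and 55 FPKM in male week 3, against 0 and 0 FPKM in male week 1 (adjusted p = 5.11e-08). Sugar transport protein 8 (LOC115714521), a hexose importer type, was at 52.4 and 51.4 FPKM in male week 3, against 0.0837 and 0 FPKM in male week 1 (log2 difference 5.67, SE 0.14, adjusted p = 7.63e-10). The list's median in female apices was 0.30.

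Genes of pollen and pollen tube growth were mixed. Of 22 tested, 7 rose (31.8%, against 34.6% of all genes tested) and 5 fell (22.7%, against 28.7%), with a median of -0.12. HAPLESS 2 (LOC115715695), the sperm protein of gamete fusion, was at 17.2 and 19.2 FPKM in male week 3, against 1.03 and 0.574 FPKM in male week 1 (log2 difference 3.42, SE 0.19, adjusted p = 1.79e-07). Pollen receptor-like kinase 4 (LOC115713410) was at 13.8 and 17 FPKM in male week 3, against 0 and 0 FPKM in male week 1 (adjusted p = 1.03e-08). DUO1 (LOC115717622), which specifies sperm cells, was at only 1.11 and 3.38 FPKM in male week 3, against 0 and 0 FPKM in male week 1 (adjusted p = 0.000576).

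The largest falls were in genes abundant at week 1. Bark storage protein A (LOC133030849; chromosome 9, 3096794 to 3118018), a vegetative storage protein type, was at 11.2 and 7.82 FPKM in male week 3, against 1438 and 877 FPKM in male week 1 (log2 difference -6.76, SE 0.27, adjusted p = 1.82e-08). Acid phosphatase 1 (LOC115707554), of the enzyme family that holds the Arabidopsis vegetative storage proteins, was at 87.9 and 87.9 FPKM in male week 3, against 4704 and 2743 FPKM in male week 1 (log2 difference -5.34, SE 0.24, adjusted p = 4.00e-08). Probable inactive purple acid phosphatase 27 (LOC115709440) was at 8.09 and 4.71 FPKM in male week 3, against 556 and 326 FPKM in male week 1 (log2 difference -5.89, SE 0.28, adjusted p = 6.04e-08), and a second gene of that name (LOC115709616) differed by -4.38. Ribonuclease 3 (LOC115721896), a secreted nuclease type, was at 14.3 and 11.3 FPKM in male week 3, against 720.3 and 339 FPKM in male week 1 (log2 difference -5.18, SE 0.29, adjusted p = 2.00e-07). Female week 3 libraries were far above male week 3 libraries, with bark storage protein A at 631 and 468 FPKM and acid phosphatase 1 at 1934 and 1614 FPKM.

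Several enzyme genes were among the other large falls. Tryptophan decarboxylase TDC2 (LOC115725218), which makes tryptamine, was at 2.65 and 2.87 FPKM in male week 3, against 141 and 105 FPKM in male week 1 (log2 difference -5.02, SE 0.16, adjusted p = 3.53e-09). 4-hydroxyphenylpyruvate dioxygenase (LOC115701500), of tocopherol synthesis, was at 2.3 and 1.5 FPKM in male week 3, against 98.1 and 77.5 FPKM in male week 1 (log2 difference -4.94, SE 0.16, adjusted p = 5.14e-09). A ferredoxin--NADP reductase of the embryo isozyme type (LOC115724444) was at 5.96 and 5.74 FPKM in male week 3, against 384 and 301 FPKM in male week 1 (log2 difference -5.64, SE 0.17, adjusted p = 2.89e-09). In the flavonoid and phenylpropanoid list, 17 rose and 33 fell of 79 tested (21.5% and 41.8%, against 34.6% and 28.7% of all genes tested). A shikimate O-hydroxycinnamoyltransferase-like gene (LOC133039577), of the lignin pathway, was at 11.8 and 12.4 FPKM in male week 3, against 167 and 179 FPKM in male week 1 (log2 difference -3.73, SE 0.12, adjusted p = 3.53e-09). Against this trend, spermidine hydroxycinnamoyl transferase (LOC115695248), which in Arabidopsis makes a pollen coat compound in the tapetum, was at 9.33 and 14.1 FPKM in male week 3, against 0 and 0 FPKM in male week 1 (adjusted p = 9.06e-08).

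Cannabinoid genes fell: 7 of 9 tested were lower and none higher, against 28.7% of all genes tested lower, with a median of -1.04 in male and 0.40 in female apices. Of the 21 genes of the list, 12 were below a mean of 1 FPKM in both male weeks. Geranylpyrophosphate:olivetolate geranyltransferase is the prenyltransferase that makes cannabigerolic acid. Here 3 genes are annotated as like it, LOC115713205, LOC115713185 and LOC115713215, and whether they have its activity was not tested. The closest Arabidopsis protein of each was homogentisate prenyltransferase. The first of these was at 11.2 and 12.4 FPKM in male week 3, against 34.2 and 38.9 FPKM in male week 1 (log2 difference -1.55, SE 0.16, adjusted p = 1.92e-05). The next was at 22.6 and 26.2 FPKM in male week 3, against 55.8 and 56.1 FPKM in male week 1 (log2 difference -1.17, SE 0.11, adjusted p = 9.46e-06), and the last at 7.43 and 7.3 FPKM in male week 3, against 17.8 and 15.6 FPKM in male week 1 (log2 difference -1.08, SE 0.13, adjusted p = 7.09e-05). Olivetolic acid cyclase-like (LOC115723438) was the most abundant of the 9, at 953 and 701 FPKM in male week 3, against 1896 and 881 FPKM in male week 1, and its difference of -0.66 did not pass the test (adjusted p = 0.11); without male week 1 replicate 2 it was called lower (-1.21). Terpene genes showed 1 rise and 10 falls among 19 tested (5.26% and 52.6%, against 34.6% and 28.7% of all genes tested). Monoterpene synthase MTS1 (LOC115722765) was at 21.8 and 21.4 FPKM in male week 3, against 96 and 81.1 FPKM in male week 1 (log2 difference -1.98, SE 0.15, adjusted p = 1.60e-06). Farnesyl pyrophosphate synthase (LOC115725517), a shared step of isoprenoid synthesis, was at 144 and 145 FPKM in male week 3, against 58.8 and 45.5 FPKM in male week 1 (log2 difference 1.46, SE 0.14, adjusted p = 1.04e-05).

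Photosynthesis genes fell almost as a whole: 43 of 49 tested were lower (87.8%, against 28.7% of all genes tested) and 1 was higher, with a median of -1.35. The main Rubisco small subunit gene (LOC115714527) was at 1062 and 1393 FPKM in male week 3, against 4624 and 9341 FPKM in male week 1 (log2 difference -2.43, SE 0.32, adjusted p = 0.000101). Rubisco activase (LOC115708105) was at 98.1 and 171 FPKM in male week 3, against 454 and 1269 FPKM in male week 1 (log2 difference -2.54, SE 0.44, adjusted p = 0.000596). In both genes week 1 replicate 2 was well above replicate 1, and both were above the week 3 libraries. A different Rubisco small subunit gene (LOC115725363) was the exception, at 95.5 and 85.7 FPKM in male week 3, against 13.7 and 7.83 FPKM in male week 1 (log2 difference 3.00, SE 0.23, adjusted p = 2.06e-06). The list fell in female apices too, where 46 of 49 were lower (against 16.8% of all genes tested) with a median of -1.47. The difference between the sexes was called for 2 genes, both higher (against 26.4% of all genes tested).

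Jasmonate genes had 12 rises and 19 falls among 46 tested (26.1% and 41.3%, against 34.6% and 28.7% of all genes tested). The median was -0.19 in male and 0.59 in female apices. Lipoxygenase 2 (LOC115719614), which starts jasmonate synthesis, was at 19.3 and 22.4 FPKM in male week 3, against 347 and 236 FPKM in male week 1 (log2 difference -3.72, SE 0.17, adjusted p = 5.11e-08). Allene oxide synthase 3 (LOC115703186), the next enzyme, was at 5.6 and 7.28 FPKM in male week 3, against 208 and 174 FPKM in male week 1 (log2 difference -4.69, SE 0.14, adjusted p = 2.25e-09). A 13S-lipoxygenase 2-1 (LOC115719617) went the other way, at 27.5 and 30.8 FPKM in male week 3, against 0.312 and 0.736 FPKM in male week 1 (log2 difference 4.32, SE 0.18, adjusted p = 2.72e-08). In the salicylate and defence list, 17 of 23 tested fell (73.9%, against 28.7% of all genes tested) and 3 rose (13.0%, against 34.6%). The median was -0.92 in male and 0.32 in female apices. DMR6-LIKE OXYGENASE 2 (LOC115715781), which hydroxylates salicylate, was at 1.89 and 1.27 FPKM in male week 3, against 88.1 and 47.2 FPKM in male week 1 (log2 difference -4.68, SE 0.36, adjusted p = 2.21e-06). DOWNY MILDEW RESISTANCE 6 (LOC115717114), a related enzyme, was at 2.27 and 3.66 FPKM in male week 3, against 38.1 and 38.8 FPKM in male week 1 (log2 difference -3.34, SE 0.29, adjusted p = 4.64e-06). WRKY70 (LOC115707511), a regulator of salicylate responses, was at 2.36 and 3.19 FPKM in male week 3, against 35.1 and 25.4 FPKM in male week 1 (log2 difference -3.04, SE 0.25, adjusted p = 3.06e-06). The week 1 male libraries were the high ones here: WRKY70 was at 5.94 and 5.46 FPKM in female week 3, against 1.41 and 0.705 FPKM in female week 1, and DMR6-LIKE OXYGENASE 2 at 2.75 and 2.99 FPKM in female week 3, against 0.26 and 0.0504 FPKM in female week 1.

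Meristem and gynoecium genes were lower on balance. Of 27 meristem homeobox genes tested, 15 fell (55.6%, against 28.7% of all genes tested) and 4 rose (14.8%, against 34.6%). The median was -0.64 in male and 0.16 in female apices. WUSCHEL-related homeobox 1 (LOC133036332), a gene of leaf blade outgrowth, was at 1.92 and 0.94 FPKM in male week 3, against 9.45 and 8.24 FPKM in male week 1 (log2 difference -2.05, SE 0.21, adjusted p = 1.90e-05). The KNAT1-type gene homeobox protein knotted-1-like 2 (LOC115719780) was at 3.9 and 4.27 FPKM in male week 3, against 10.2 and 8.54 FPKM in male week 1 (log2 difference -1.02, SE 0.17, adjusted p = 0.000552). WUSCHEL (LOC115711960), which maintains stem cells and in Arabidopsis also acts in developing anthers, was one of the 4 that rose, at 2.66 and 5.77 FPKM in male week 3, against 0.0633 and 0.144 FPKM in male week 1 (log2 difference 2.17, SE 0.25, adjusted p = 4.01e-05). Of 11 gynoecium and ovule genes tested, 5 fell (45.5%, against 28.7% of all genes tested) and 2 rose (18.2%, against 34.6%). YABBY 1 (LOC115704995), which marks the outer side of lateral organs, was at 11.4 and 13.5 FPKM in male week 3, against 73.8 and 50.2 FPKM in male week 1 (log2 difference -2.21, SE 0.19, adjusted p = 5.46e-06). CRABS CLAW (LOC115699020), which acts in carpels and nectaries, was at 0.681 and 0.534 FPKM in male week 3, against 6.97 and 3.99 FPKM in male week 1 (log2 difference -1.97, SE 0.24, adjusted p = 5.03e-05).

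Cell division genes changed in a mixed way. Of 64 cyclins and cyclin-dependent kinases tested, 27 rose (42.2%, against 34.6% of all genes tested) and 16 fell (25%, against 28.7%). Cyclin-A3-4-like (LOC115710671) was at 42.9 and 48 FPKM in male week 3, against 0 and 0 FPKM in male week 1 (adjusted p = 8.24e-10), cyclin-T1-3 (LOC115694713) at 132 and 115 FPKM in male week 3, against 5.4 and 3.52 FPKM in male week 1 (log2 difference 4.53, SE 0.20, adjusted p = 4.48e-08). Cyclin-D4-2 (LOC115714274) was at 98.4 and 106 FPKM in male week 3, against 11.7 and 10.2 FPKM in male week 1 (log2 difference 3.11, SE 0.11, adjusted p = 9.75e-09). Among 46 histone genes tested, 14 rose (30.4%) and 16 fell (34.8%), against 34.6% and 28.7% of all genes tested, with a median of -0.07. The count of histone rises was 8 without male week 3 replicate 2. Histone genes are a family of similar sequences, so single genes are uncertain. A histone H3.3-like gene (LOC115701521) was at 492 and 641 FPKM in male week 3, against 1.92 and 2.31 FPKM in male week 1 (log2 difference 7.50, SE 0.23, adjusted p = 3.09e-09).

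Cytosolic ribosomal protein genes, the core of protein synthesis, fell by a small amount, with a median of -0.52 in male and -0.43 in female apices. Of 182 tested, 106 were lower (58.2%, against 28.7% of all genes tested) and 8 higher (4.40%, against 34.6%). The number lower was 63 without male week 3 replicate 2, and the number higher was 5 without male week 3 replicate 1. A few paralogues behaved otherwise, such as uL2z-like (LOC115717100), at 55.1 and 57.3 FPKM in male week 3, against 0 and 0 FPKM in male week 1 (adjusted p = 4.80e-10). The gene uL10 (LOC115720771) was at 189.7 and 125 FPKM in male week 3, against 0.708 and 1.34 FPKM in male week 1 (log2 difference 6.28, SE 0.22, adjusted p = 8.38e-09).

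Heat shock genes rose, with a median of 0.77 in male and 0.02 in female apices. Of 60 tested, 34 were higher (56.7%, against 34.6% of all genes tested) and 8 lower (13.3%, against 28.7%). The mitochondrial heat shock 22 kDa protein (LOC115707101) was at 436 and 273 FPKM in male week 3, against 1.99 and 1.08 FPKM in male week 1 (log2 difference 7.12, SE 0.33, adjusted p = 5.48e-08), heat shock protein 83 (LOC115706731) at 146 and 106 FPKM in male week 3, against 0.677 and 0.897 FPKM in male week 1 (log2 difference 6.13, SE 0.21, adjusted p = 6.71e-09). Heat stress transcription factor A-8 (LOC115721819) was at 164 and 146 FPKM in male week 3, against 6.09 and 7.26 FPKM in male week 1 (log2 difference 4.35, SE 0.23, adjusted p = 1.16e-07). The mitochondrial protein and protein 83 were also present in the vegetative libraries, at 89.4 and 42.9 FPKM and at 46.4 and 30.3 FPKM. These chaperones help proteins fold. Of the 34 that rose, 24 were higher in male week 3 replicate 1. Small RNA machinery had 10 rises and 3 falls among 20 tested (50% and 15%, against 34.6% and 28.7% of all genes tested). RNA-dependent RNA polymerase 1 (LOC115721801) was at 214 and 253 FPKM in male week 3, against 9.58 and 10.3 FPKM in male week 1 (log2 difference 4.42, SE 0.14, adjusted p = 4.21e-09), ARGONAUTE 2 (LOC115697316) at 60.3 and 40.9 FPKM in male week 3, against 2.99 and 3.64 FPKM in male week 1 (log2 difference 3.56, SE 0.22, adjusted p = 4.28e-07). SUPPRESSOR OF GENE SILENCING 3 (LOC115719400) was at 302 and 293 FPKM in male week 3, against 50.9 and 44.5 FPKM in male week 1 (log2 difference 2.62, SE 0.12, adjusted p = 3.89e-08). ARGONAUTE 7-like (LOC115700493) was at 3.03 and 4.65 FPKM in male week 3, against 14.1 and 14.5 FPKM in male week 1 (log2 difference -1.68, SE 0.17, adjusted p = 1.71e-05).

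Among hormones, cytokinin genes rose most often, with a median of 0.92. Among 32 tested there were 19 rises (59.4%, against 34.6% of all genes tested) and 4 falls (12.5%, against 28.7%). The response regulator ARR9 (LOC115700593) was at 115 and 90.3 FPKM in male week 3, against 5.39 and 3.83 FPKM in male week 1 (log2 difference 4.21, SE 0.20, adjusted p = 5.67e-08). ARR12 (LOC133031709), which carries out the cytokinin response, was at 114 and 168 FPKM in male week 3, against 11.6 and 13.5 FPKM in male week 1 (log2 difference 3.36, SE 0.17, adjusted p = 8.97e-08). Ethylene genes had 9 rises (42.9%, against 34.6% of all genes tested) and 2 falls (9.52%, against 28.7%) among 21 tested. Their median was 0.26 in male apices. In female apices, which had no STS treatment, the same list had 9 rises, no fall and a median of 0.39. Of all genes tested, 17.8% rose and 16.8% fell in female apices. The ethylene-forming enzyme 1-aminocyclopropane-1-carboxylate oxidase 5 (LOC115699408) was at 36 and 49.2 FPKM in male week 3, against 0.188 and 0.214 FPKM in male week 1 (log2 difference 5.17, SE 0.17, adjusted p = 4.90e-09). An EIN3-LIKE 1 gene (LOC115711236), of the ethylene-activated transcription factors, was at 136 and 117 FPKM in male week 3, against 17.5 and 12.3 FPKM in male week 1 (log2 difference 3.02, SE 0.17, adjusted p = 2.12e-07). Auxin genes had 18 rises and 29 falls among 80 tested (22.5% and 36.25%, against 34.6% and 28.7% of all genes tested). Auxin transporter-like protein 2, an auxin importer (LOC115704558) was at 2.47 and 3.26 FPKM in male week 3, against 24.4 and 26.2 FPKM in male week 1 (log2 difference -2.78, SE 0.15, adjusted p = 1.44e-07). Auxin response factor 16 (LOC115718756) was at 23.1 and 15.7 FPKM in male week 3, against 2.12 and 2.01 FPKM in male week 1 (log2 difference 2.71, SE 0.19, adjusted p = 1.16e-06). Gibberellin genes had 6 rises and 10 falls among 24 tested (25% and 41.7%, against 34.6% and 28.7% of all genes tested). In this list 2 enzymes of gibberellin synthesis moved apart. Gibberellin 3-beta-dioxygenase 1 (LOC115705300) was at 2 and 1.38 FPKM in male week 3, against 11.2 and 10.8 FPKM in male week 1 (log2 difference -2.17, SE 0.18, adjusted p = 4.23e-06). Gibberellin 20 oxidase 1-B (LOC115712114) was at 16.5 and 13.6 FPKM in male week 3, against 1.96 and 2.01 FPKM in male week 1 (log2 difference 2.42, SE 0.24, adjusted p = 1.41e-05).

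The remaining lists lay near the share of all genes or were mixed. Expansin and xyloglucan enzymes had 14 rises and 19 falls of 39 tested (35.9% and 48.7%, against 34.6% and 28.7% of all genes tested). Cuticle and very long chain lipid genes had 12 and 10 of 32 (37.5% and 31.25%). Floral identity and flowering time genes had 7 and 13 of 40 (17.5% and 32.5%). In the last of these, CONSTANS-LIKE 6 (LOC115711648) was at 0.624 and 0.59 FPKM in male week 3, against 8.87 and 17.6 FPKM in male week 1 (log2 difference -3.08, SE 0.31, adjusted p = 1.40e-05). SPL9 (LOC115701122), an age-dependent promoter of flowering, was at 20.0 and 19.8 FPKM in male week 3, against 82.2 and 61 FPKM in male week 1 (log2 difference -1.78, SE 0.14, adjusted p = 2.91e-06).

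**Figure D4:**
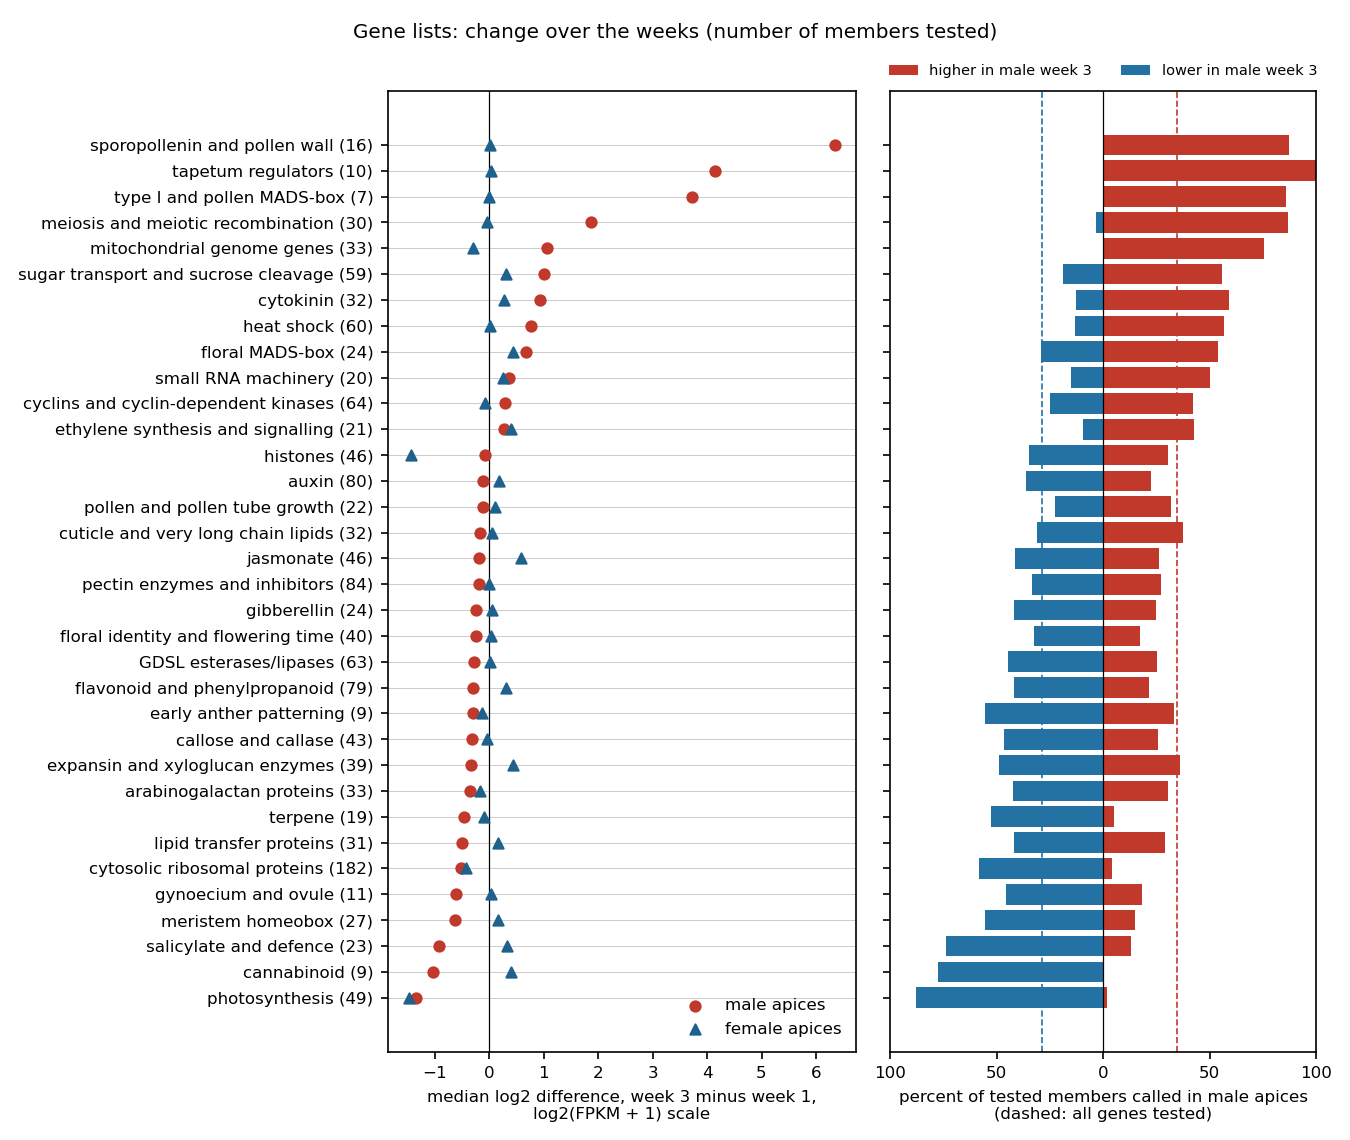
Left, the median log2 difference of each gene list (rows, with the number of members tested) in male apices (circles) and in female apices (triangles). Right, the percent of tested members called higher or lower in male week 3, with dashed lines at the shares of all genes tested, 34.6% and 28.7%.

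The same change was measured in female apices, and the difference between the male and the female change was tested in the same fit. In female apices 6172 of the 17844 genes were called between the weeks (34.6%), 3183 higher (17.8%) and 2989 lower (16.8%). The male change differed from the female change for 8177 genes (45.8%), with 4716 more positive (26.4%) and 3461 more negative (19.4%) in male apices. The FPKM totals of the female week 3 libraries, 630805 and 603616, were the lowest of the study. With every library scaled to the same total, those counts were 3901 and 5316, and after quantile normalization 3721 and 5718. Of the 6177 genes higher in male week 3, 1471 were also higher in female week 3, and 4299 had a more positive change in male than in female apices. Of the 5113 genes lower in male week 3, 1963 were also lower in female week 3, and 2409 had a more negative change in male apices. All 10 genes of the tapetum regulator list, 14 of 16 pollen wall genes and 24 of 30 meiosis genes had a more positive change in male apices.

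In opposite directions, 397 genes were called higher in male and lower in female apices over the weeks, and 558 lower in male and higher in female apices. For all 397 and all 558 the difference between the sexes was called. Opposite calls from the same fit bring this with them, so it adds no support. JOINTLESS (LOC115714329) rose in male apices, as above, and was at 0.434 and 0.611 FPKM in female week 3, against 4.84 and 5.77 FPKM in female week 1 (difference between the changes 5.04, SE 0.22, adjusted p = 9.70e-08). SVP (LOC115721274) was at 0.181 and 0 FPKM in female week 3, against 14 and 10.4 FPKM in female week 1 (difference between the changes 4.71, SE 0.26, adjusted p = 4.29e-07). AGL11 and CRABS CLAW fell in male apices and rose in female apices. AGL11 (LOC133031811) was at 83.8 and 69.8 FPKM in female week 3, against 8.17 and 10.2 FPKM in female week 1 (difference -5.13, SE 0.31, adjusted p = 7.55e-07), and CRABS CLAW (LOC115699020) at 22.8 and 18.6 FPKM in female week 3, against 3.58 and 4.34 FPKM in female week 1 (difference -4.10, SE 0.33, adjusted p = 6.25e-06). AINTEGUMENTA (LOC115712812), which promotes growth of floral organs and ovules, was at 6.27 and 5.78 FPKM in male week 3, against 28.7 and 22.4 FPKM in male week 1, and at 36.5 and 36.7 FPKM in female week 3, against 20.9 and 25.7 FPKM in female week 1 (difference -2.54, SE 0.22, adjusted p = 9.87e-06).

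The largest differences were outside these regulators. A ferredoxin--NADP reductase of the root isozyme type (LOC115695589; chromosome 6, 74563378 to 74565938) was at 403 and 1079.7 FPKM in male week 3, against 0.632 and 0.82 FPKM in male week 1, and at 0.0721 and 0 FPKM in female week 3, against 10.3 and 6.78 FPKM in female week 1 (difference 11.76, SE 0.52, adjusted p = 9.16e-08). A class V chitinase annotated CHIT5-like (LOC115695573; chromosome 6, 74037048 to 74038807) was at 1345 and 3196 FPKM in male week 3, against 11.3 and 5.78 FPKM in male week 1, and at 0.513 and 0.118 FPKM in female week 3, against 9.34 and 5.68 FPKM in female week 1 (difference 10.51, SE 0.57, adjusted p = 3.84e-07). Lipid-transfer protein 1 (LOC115696872) was at 0.272 and 0.277 FPKM in male week 3, against 48.7 and 37.8 FPKM in male week 1, and at 1073 and 694 FPKM in female week 3, against 48.8 and 58.9 FPKM in female week 1 (difference -9.09, SE 0.29, adjusted p = 1.19e-08). A thionin (LOC115712639), a small antimicrobial peptide, was at 22.8 and 17.9 FPKM in male week 3, against 178 and 149 FPKM in male week 1, and at 3373 and 2668 FPKM in female week 3, against 194 and 189.6 FPKM in female week 1 (difference -6.91, SE 0.34, adjusted p = 1.90e-07). In each of these genes the male and female week 3 libraries lay on opposite sides of the week 1 libraries of their own sex. For the reductase the week 1 libraries already differed between the sexes. Probable linoleate 9S-lipoxygenase 5 (LOC115719336) showed the same, at 79.6 and 103 FPKM in male week 3, against 598 and 506 FPKM in male week 1, and at 830.4 and 898 FPKM in female week 3, against 362 and 346 FPKM in female week 1 (difference -3.87, SE 0.22, adjusted p = 5.82e-07).

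Histones also divided the sexes. In female apices 40 of 46 fell (against 16.8% of all genes tested), with a median of -1.43. In 34 of 46 the male change was more positive (against 26.4%). The shares over all genes move with scaling, as given above. Histone H2B.3 (LOC133036319) was at 2213 and 2223 FPKM in male week 3, against 970.4 and 676 FPKM in male week 1, and at 309.9 and 241 FPKM in female week 3, against 679 and 787 FPKM in female week 1 (difference 2.87, SE 0.28, adjusted p = 2.21e-05), and an H2B gene (LOC115721234) at 826 and 824 FPKM in male week 3, against 298 and 251 FPKM in male week 1, and at 98.1 and 86.2 FPKM in female week 3, against 208 and 227 FPKM in female week 1 (difference 2.82, SE 0.24, adjusted p = 8.28e-06). How reads were split between H2B genes could not be checked. Jasmonate genes divided the other way. In female apices 27 of 46 rose and 2 fell, against 17.8% and 16.8% of all genes tested. The male change was more negative for 25 of the 46, against 19.4% of all genes tested. Heat shock genes had a more positive change in male apices in 35 of 60, against 26.4% of all genes tested.

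The authors' deposited table for the same pair of groups called 5000 of the 17844 genes higher and 4048 lower in male week 3 at an adjusted p under 0.05. Of these, 4988 and 4022 were called in the same direction by limma here, none was called in the opposite direction, and 38 were called in the authors' deposited table alone. Limma called 2280 genes that the authors' deposited table did not, among them 232 that it lists with a log2 of 0 and an adjusted p of 1.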

How the data were processed

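The authors deposited 1 table of 35192 genes with a value per gene in each of 10 libraries. Per the file headers the genes are those of the genome build ASM2916894v1, and the choice of aligner and counter is not given in the sources used here. From their values the deposited columns were taken as FPKM, which RPKM cannot be told apart from. Per the file headers the table also holds log2 ratios of week 1 over week 3, a p-value and an adjusted p-value from the authors, and the percent identity to the closest Arabidopsis protein. The number of reads is unknown, so no counting interval is given.

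Groups were taken from the labels. Genes averaging 1 FPKM or more in either male week were tested on log2(FPKM + 1) in 1 fit over the 10 libraries and 5 groups, using limma 3.58.1 in R 4.3.3 with trend and robust estimation and Benjamini-Hochberg adjustment over all genes tested. The fit had 5 residual degrees of freedom. The week by sex interaction is the male difference minus the female difference, and the 2 share no libraries. Summaries used Python 3.11.15, pandas 2.3.3 and numpy 2.4.6. The procedure was tested on simulated data.

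Gene lists, 33 in number, were built from product descriptions and from the closest Arabidopsis proteins. Transcription factor families were taken from the deposited table. The members and lists were chosen with earlier results of these data known. Organelle ribosomal proteins were taken out of the cytosolic list, and the mitochondrial genome genes were listed, after values were seen. Genes named are the called members of each list with the largest differences and groups that do not overlap, every floral MADS-box gene tested, and the called named products with the largest rises, falls and interactions whose higher group averaged at least 10 FPKM. Further tapetum, pollen wall, meiosis, meristem and cannabinoid genes outside this rule were chosen after their values were seen. In a male library 191 genes, 55 of them tested, had a value above 0 but under 0.001 FPKM, and none of these is named. Some genes of the meiosis list are counted but not reported here by name.

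Alternatives covered the pseudocount, the filter on low values, scaling, a replicate block, the variance estimate, the male libraries alone and each male library left out. Replicate numbers are shared by the labels, but with 2 numbers they were treated as names only. Near-identical genes can share reads in ways the table does not show.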

Additional observations from a re-analysis of the deposited data

Results flagged for a closer look

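Between the weeks, 397 genes were called higher in male and lower in female apices, and 558 lower in male and higher in female apices. The difference between the sexes was called for all of them, which follows from the opposite calls in the same fit. Since only the male libraries carried the STS treatment, sex and treatment cannot be told apart. Differences between the male and the female change are given on the log2 scale for the genes named, each with opposite changes in the sexes and a called difference.

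Among genes with a more positive change in male apices, the difference was 6.47 for PMADS 2 (LOC115699531), 5.04 for JOINTLESS (LOC115714329), 4.71 for SVP (LOC115721274) and 5.32 for tetraketide alpha-pyrone reductase 2 (LOC115712400). It was 11.76 for the root-type ferredoxin--NADP reductase (LOC115695589), 10.51 for the CHIT5-like chitinase (LOC115695573), 2.87 for histone H2B.3 (LOC133036319) and 2.82 for histone H2B (LOC115721234).

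Among genes with a more negative change in male apices, the difference was -5.13 for AGL11 (LOC133031811), -2.62 for CAULIFLOWER A (LOC115698549), -4.10 for CRABS CLAW (LOC115699020), -2.54 for AINTEGUMENTA (LOC115712812) and -1.67 for the KNAT1-type gene (LOC115719780). It was -9.09 for lipid-transfer protein 1 (LOC115696872), -6.91 for thionin (LOC115712639), -3.87 for 9S-lipoxygenase 5 (LOC115719336), -6.43 for DMR6-LIKE OXYGENASE 2 (LOC115715781), -4.76 for WRKY70 (LOC115707511) and -2.64 for the geranyltransferase-like gene (LOC115713215).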

How the results depend on the processing

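For male week 3 against male week 1, 11290 genes were called, and the count was 10121 to 10989 with 1 male library left out, 9497 with the male libraries fitted alone and 11253 without genes given near-zero values, an alternative chosen after seeing the data. Requiring an absolute difference of at least 1 left 5756 genes, 3758 higher and 1998 lower. For the week by sex interaction, 7523 to 8321 genes were called with 1 male library left out, and the number called lower was 5316 with libraries scaled to equal totals and 5718 after quantile normalization, against 3461. For female week 3 against female week 1, the number called higher was 5530 with equal totals, against 3183, and 6259 to 6943 genes were called with 1 male library left out. The cause of these moves was not tested.

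With the replicate number as a block, 11079 genes were called in male week 3 against male week 1 (6081 higher and 4998 lower), 7926 in the interaction and 5794 in female apices. The deviations of same-numbered libraries correlated at 0.22 between the male weeks and at -0.10 between the female weeks, and the deviations of male week 1 and female week 1 at -0.45. A crossed pairing of the female libraries, added after seeing the data, gave 8678 calls in the interaction and 6730 in female apices.

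Of the genes named, a few that missed the threshold changed sign. After quantile normalization the differences were -0.20 for MLH3 and -1.76e-03 for MADS3. With equal totals MLH3 (LOC115702602) was at -9.65e-03. With 1 library left out the ranges were -0.25 to 0.10 for CAULIFLOWER A (LOC115701438), -0.22 to 0.26 for MLH3 (LOC115702602), -0.29 to 0.023 for APG (LOC115704456), -0.019 to 0.51 for the synaptonemal complex gene (LOC115710142) and -0.18 to 0.55 for MADS3 (LOC115716337). Of the 160 genes named, 6 lost their call under some alternative. The read depth behind single calls is unknown.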

Other observations

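Transcription factor families, as the deposited table assigns them, also differed in direction, beside 34.6% of all genes higher and 28.7% lower. The B3 family had 13 rises and 4 falls among 22 tested, with a median difference of 0.85. A putative B3 gene annotated At5g58280 (LOC115696320) was at 55.9 and 45.4 FPKM in male week 3, against 0 and 0 FPKM in male week 1 (adjusted p = 1.31e-09), and REM16 (LOC115699937), of the reproductive meristem group, at 200.4 and 193 FPKM in male week 3, against 46.4 and 41.5 FPKM in male week 1 (log2 difference 2.14, SE 0.11, adjusted p = 9.80e-08). NAC genes had 20 rises and 7 falls among 44 tested. NAC domain-containing protein 89 (LOC115700444) was at 69.9 and 80.6 FPKM in male week 3, against 15.4 and 12.7 FPKM in male week 1 (log2 difference 2.34, SE 0.13, adjusted p = 2.03e-07). The bHLH family went the other way, with 9 rises and 29 falls among 56 tested and a median of -0.43. MYC2 (LOC115708126), a regulator of jasmonate responses, was at 6.62 and 8.11 FPKM in male week 3, against 33.5 and 31.3 FPKM in male week 1 (adjusted p = 3.41e-07), and bHLH71 (LOC115715733) at 10.8 and 8.31 FPKM in male week 3, against 41.6 and 44.5 FPKM in male week 1 (log2 difference -2.07, SE 0.16, adjusted p = 2.06e-06). HD-ZIP genes had 3 rises and 9 falls among 21 tested. Of the 21, 14 had a more negative change in male than in female apices, against 19.4% of all genes tested. ATHB-15 (LOC115707515), which acts in meristems and vascular tissue, was at 12.2 and 17.5 FPKM in male week 3, against 27.8 and 34.4 FPKM in male week 1 (log2 difference -1.03, SE 0.17, adjusted p = 0.000534).

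Genes of the mitochondrial genome were called higher in 25 of 33 tested and lower in none, with a median of 1.06 in male and -0.31 in female apices, and the count of rises was 16 without male week 3 replicate 2. Ribosomal protein S3 (A5N79_gp11) was at 19.7 and 25 FPKM in male week 3, against 3.9 and 7.37 FPKM in male week 1 (log2 difference 1.86, SE 0.31, adjusted p = 0.000473), and cytochrome c oxidase subunit 3 (A5N79_gp15), of the respiratory chain, at 10.6 and 15.2 FPKM in male week 3, against 2.8 and 5.61 FPKM in male week 1 (log2 difference 1.45, SE 0.36, adjusted p = 0.00576). The call of cytochrome c oxidase subunit 3 was lost without male week 3 replicate 2 (adjusted p = 0.0634). The week 1 replicates of these genes also differed from each other. The nuclear chromosomes were alike in their share of genes called higher, between 32.7% and 36.5%, with 35.5% on the X chromosome.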
